A study of Mus musculus with 6 samples.

Results

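CXCR4 is a G protein-coupled receptor for the chemokine CXCL12, and the pair guides cell migration, retention in niches and, in melanoma, spread to tissues rich in CXCL12. ACKR3 binds the same ligand without classical G protein signaling and removes it from the surroundings. MIF is a cytokine that binds CXCR4 and also CD74, the invariant chain of MHC class II, which acts as a MIF receptor together with CD44. The genes Cxcr4, Cxcl12, Ackr3, Mif and Cd74 were followed in D4M-3A cells, a mouse melanoma line with mutant Braf. All 5 genes were found by symbol among the 43043 genes listed for each sample, and all 5 passed the filter on low read counts.

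Bulk RNA was sequenced in 3 control (Ctrl) samples and 3 samples with a CRISPR-Cas9 knockout of Nfkbiz (Nfkbiz KO), the gene of the NF-κB co-regulator IκBζ. Ctrl cells carried an empty CRISPR-Cas9 construct, both groups were transduced with lentivirus and selected with puromycin, and both were grown in medium with serum and without further treatment. Replicates were independent experiments by the methods of the study, which do not say whether the knockout cells were a pool or 1 clone, and p-values measure the spread between these samples. Between 32219900 and 44927203 reads per sample were counted on genes, so that a total of 3 reads, taken as the limit of detection, corresponded to 0.0668 to 0.0931 CPM (the reads of a gene scaled to a common library size), counting error only. The targeted gene Nfkbiz stood at 69.2 ± 5.87 TPM in Ctrl samples and at 34.9 ± 0.245 TPM in Nfkbiz KO samples (SD, n = 3 each). Nfkbiz changed by a log2 fold change of -0.98 with an SE of 0.056 (adjusted p = 5.98e-08), without overlap between the groups. TPM is a share of all transcripts that is corrected for transcript length and rests on exon reads.

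The melanocyte label was checked against 13 lineage genes. Of these, 12 stayed below 1 TPM in every sample, and 5 had 0 reads in all 6 samples, among them Tyr, Sox10 and Kit, which were named after their values were seen. Mitf, the lineage's master regulator, was highest with means of 0.951 TPM for Ctrl and 0.953 TPM for Nfkbiz KO. Pmel, a melanosome protein gene, was detected at 18 to 26 reads in Ctrl and 24 to 34 reads in Nfkbiz KO, and S100b at 8 to 13 and 4 to 10 reads. The lineage genes were thus undetected or low in both groups.

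Cxcr4 was chosen by the comparison described here, because its log2 fold change between Nfkbiz KO and Ctrl ranked 1 among 14419 genes tested. The other genes were added as its ligands and receptors, with their values known. Their levels are therefore given as a description and without a test. In bulk RNA, a change in the share of cells that express a gene and a change in RNA per cell cannot be told apart.

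To show the sequence in front of the gene that moved most and of the receptor that shares its ligand, the RefSeq promoter windows of Cxcr4 and Ackr3 are printed, from 250 bases before to 50 bases after the annotated start. The coordinates are those of GRCm38.p6, chr1:128592250-128592549 on the minus strand for Cxcr4 and chr1:90203730-90204029 on the plus strand for Ackr3, and each window also matched GRCm39 exactly at 1 place. Capitals mark the NRF-1 core GCATGCGC, the TATA motif TATAAA and the hypoxia response cores ACGTG or, as a variant, GCGTG on either strand.
Cxcr4: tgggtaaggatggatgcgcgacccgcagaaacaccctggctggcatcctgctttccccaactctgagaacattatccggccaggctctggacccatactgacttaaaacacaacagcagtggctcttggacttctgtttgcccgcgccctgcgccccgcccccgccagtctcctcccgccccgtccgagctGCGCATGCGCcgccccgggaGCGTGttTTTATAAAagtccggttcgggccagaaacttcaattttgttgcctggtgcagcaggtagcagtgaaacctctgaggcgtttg
Ackr3: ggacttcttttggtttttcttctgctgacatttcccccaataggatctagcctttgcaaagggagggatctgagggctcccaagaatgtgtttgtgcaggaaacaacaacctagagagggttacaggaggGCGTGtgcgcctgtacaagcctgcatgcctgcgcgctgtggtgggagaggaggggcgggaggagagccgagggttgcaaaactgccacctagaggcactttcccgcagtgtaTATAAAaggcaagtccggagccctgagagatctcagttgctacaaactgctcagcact

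The Cxcr4 window held the NRF-1 core on both strands, in overlapping matches between 59 and 50 bases before the start, and 2.71% of the 32851 promoter windows of the table held this core. It also held GCGTG at 39 to 35 bases and TATAAA at 30 to 25 bases before the start, the latter with an overlapping match on the other strand. GCGTG was present in 32.4% of all windows and TATAAA in 13.6%. The Sp1 core GGGCGG had 3 matches in the Cxcr4 window, of which the nearest to the start overlapped the NRF-1 match by 1 base, and was present in 35.7% of all windows. The Ackr3 window held 1 match each of the hypoxia response variant, the Sp1 core and the TATA motif, and no NRF-1 core. Neither the NF-κB consensus, found in 8.46% of all windows, nor the STAT motif TTCNNNGAA, found in 8.3%, nor ACGTG, found in 19.6%, was in either printed window. These matches are letters in a window and were not tested for binding.

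Cxcr4 (ENSMUSG00000045382, chromosome 1, 128515936 to 128520044, minus strand, GRCm39) was at the edge of expression in Ctrl. It had 25, 23 and 22 reads in Ctrl replicates 1, 2 and 3, and 295, 333 and 400 reads in Nfkbiz KO replicates 1, 2 and 3. In TPM these were 1.34, 1.18 and 0.879 in Ctrl and 18.0, 16.5 and 17.1 in Nfkbiz KO. All Nfkbiz KO samples were above all Ctrl samples, and the lowest Nfkbiz KO value was far from the highest Ctrl value. The fitted log2 fold change was 3.84 with a standard error of 0.16, which is a 14.3-fold higher level in Nfkbiz KO. The mean level was 1.13 ± 0.236 TPM for Ctrl and 17.2 ± 0.755 TPM for Nfkbiz KO (SD, n = 3 each). All reads on Cxcr4 mapped uniquely.

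The read counts of the tables include reads outside exons, whereas TPM and RPKM use exon reads. Exon reads were estimated from RPKM as the largest whole numbers that fit all 6 samples, within 0.15 reads or 0.3%. The search began at all reads of Ctrl replicate 1 and kept the first fit, so the numbers are upper estimates. For the Nfkbiz KO samples the 0.3% was too wide to reject any whole number. By this estimate up to 69 of 70 Cxcr4 reads in the Ctrl samples together lay in exons. In the Nfkbiz KO samples together it was up to 1013 of 1028. Relative to mapped reads the exon reads were 14.6 times higher in Nfkbiz KO, a ratio that does not depend on which whole numbers are taken.

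**Figure D1:**
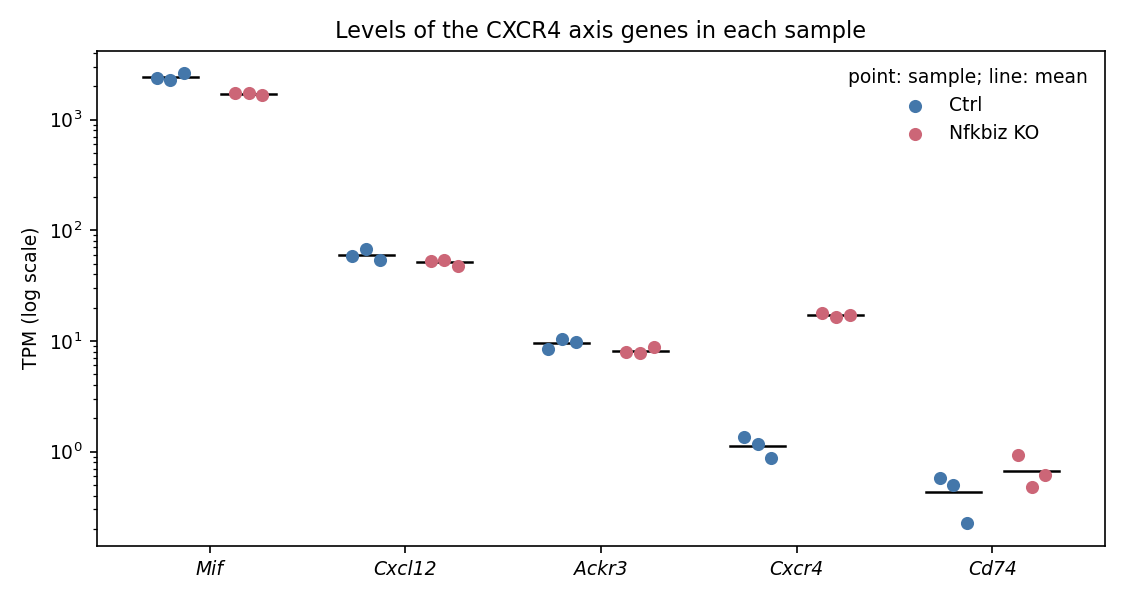
TPM (log scale) of Mif, Cxcl12, Ackr3, Cxcr4 and Cd74 in each of the 3 Ctrl and 3 Nfkbiz KO samples; points are samples and lines are group means. Cxcr4 lies between Ackr3 and Cd74 in Ctrl, at a mean of 1.13 TPM, and above Ackr3 in Nfkbiz KO, at a mean of 17.2 TPM.

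Cxcl12 (ENSMUSG00000061353, chromosome 6, 117144945 to 117158328, plus strand, GRCm39), the ligand of both receptors, was well expressed in both groups. It had 58.6, 67.5 and 54.4 TPM in Ctrl replicates 1, 2 and 3 and 53.1, 53.6 and 48.0 TPM in Nfkbiz KO replicates 1, 2 and 3. The groups did not overlap, but the lowest Ctrl value and the highest Nfkbiz KO value lay close together. The log2 fold change from read counts was -0.31 (SE 0.062). Means were 60.2 ± 6.67 TPM for Ctrl and 51.6 ± 3.10 TPM for Nfkbiz KO (SD, n = 3 each). The gene has several splice forms, which the tables do not separate.

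Ackr3 (ENSMUSG00000044337, chromosome 1, 90131689 to 90144473, plus strand, GRCm39), the scavenging receptor, was also slightly lower in Nfkbiz KO. Ctrl replicates 1, 2 and 3 had 8.39, 10.5 and 9.81 TPM, and Nfkbiz KO replicates 1, 2 and 3 had 7.94, 7.76 and 8.80 TPM. On this scale the groups overlapped, since Ctrl replicate 1 was below Nfkbiz KO replicate 3. Means were 9.57 ± 1.08 TPM for Ctrl and 8.17 ± 0.553 TPM for Nfkbiz KO (SD, n = 3 each). From read counts the log2 fold change was -0.31 (SE 0.10), and the normalized counts of 8.89 to 10.4 CPM in Ctrl and 7.5 to 8.65 CPM in Nfkbiz KO did not overlap.

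The order of the receptors of CXCL12 was therefore not the same in the groups. In Ctrl, Ackr3 was 6.24 to 11.2 times as high as Cxcr4 in TPM. In Nfkbiz KO, Cxcr4 was 1.94 to 2.26 times as high as Ackr3, in each of the 3 samples. The ratio of ligand to signaling receptor, Cxcl12 over Cxcr4 in TPM, was 43.6 to 61.9 in Ctrl and 2.81 to 3.25 in Nfkbiz KO. The ratio of ligand to scavenging receptor, Cxcl12 over Ackr3, was 5.55 to 6.99 in Ctrl and 5.45 to 6.90 in Nfkbiz KO, with overlapping ranges. These are ratios of RNA and do not measure surface receptor or secreted ligand.

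**Figure D2:**
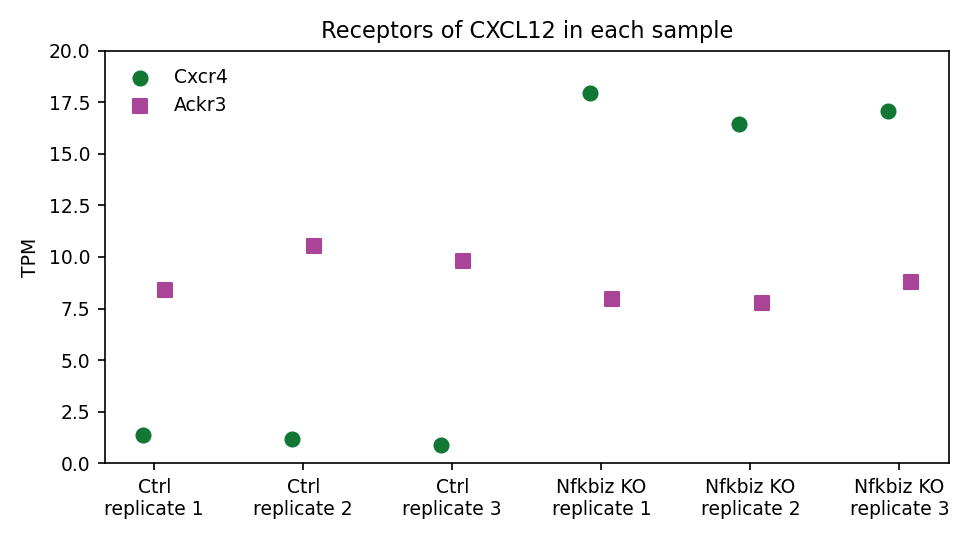
TPM of Cxcr4 (circles) and Ackr3 (squares) in each sample, on a linear axis. Ackr3 is the higher of both in every Ctrl sample and Cxcr4 is the higher in every Nfkbiz KO sample, while Ackr3 itself stays between 7.76 and 10.5 TPM.

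Mif (ENSMUSG00000033307, chromosome 10, 75695187 to 75696122, minus strand, GRCm39) was the most abundant gene of the axis. Its level was 2399, 2259 and 2625 TPM in Ctrl replicates 1, 2 and 3 and 1737, 1731 and 1676 TPM in Nfkbiz KO replicates 1, 2 and 3. The groups did not overlap, and the Nfkbiz KO samples lay within a narrow band. The log2 fold change was -0.60 (SE 0.078), with means of 2428 ± 184 TPM for Ctrl and 1714 ± 33.8 TPM for Nfkbiz KO (SD, n = 3 each). Among the genes listed, Mif ranked 44 by mean TPM in Ctrl and 68 in Nfkbiz KO. Processed pseudogenes of Mif exist in the mouse genome, but all reads counted on Mif were mapped uniquely.

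Cd74 was barely detected. It had 11, 10 and 11 reads in Ctrl replicates 1, 2 and 3 and 15, 10 and 18 reads in Nfkbiz KO replicates 1, 2 and 3, that is 0.225 to 0.579 TPM for Ctrl and 0.482 to 0.928 TPM for Nfkbiz KO. The groups overlapped, with a log2 fold change of 0.39 and a standard error of 0.40, so that no difference was detectable at this depth. The exon reads estimated from RPKM were 10, 9 and 5 in Ctrl and 14, 9 and 13 in Nfkbiz KO. In Ctrl replicate 3, 5 of 11 reads were exonic, which places this sample lowest in TPM but not in reads. Mif was 4144 to 11650 times as high as Cd74 in Ctrl and 1872 to 3589 times as high in Nfkbiz KO.

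In Ctrl the order of mean TPM was Mif, Cxcl12, Ackr3, Cxcr4 and Cd74, and no neighbors in this order had overlapping values. In Nfkbiz KO it was Mif, Cxcl12, Cxcr4, Ackr3 and Cd74, again without overlap between neighbors. By read counts, 4 of the 5 genes passed an adjusted p threshold of 0.05, Cxcr4 higher and Cxcl12, Ackr3 and Mif lower in Nfkbiz KO. The same held for 36.6% of all genes tested, 18.2% higher and 18.4% lower, and since the genes were chosen on this comparison nothing is read from the count. The thresholds of the study, which ask for a difference of more than 4, here taken in TPM, beside a fold above 2 and the same adjusted p, were met by Cxcr4 only, and by 1.79% of all genes tested. In CPM the Ctrl and Nfkbiz KO values were fully separated for 4 of the 5 genes and for 48.4% of all genes tested.

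Leukocytes carry abundant Cxcr4 and Cd74, and their markers were therefore examined. Of 20 markers, 18 stayed below 1 TPM in every sample. Cd3e, Ms4a1, Ncr1 and S100a9 had 0 reads in all samples, and Ptprc, the pan-leukocyte marker CD45, had between 0 and 6 reads per sample, all named after their values were seen. The summed level of the list was 13.1 to 17.7 TPM for Ctrl and 6.82 to 11.1 TPM for Nfkbiz KO. Most of it was S100a8, a calcium-binding protein gene that cells other than leukocytes also express, which stood at 13.4 ± 2.19 TPM for Ctrl and 5.86 ± 1.24 TPM for Nfkbiz KO (SD, n = 3 each) and fell by 1.32 on the log2 scale (SE 0.22, adjusted p = 0.000548). Cd68 had a log2 fold change of 0.34 (SE 0.27, adjusted p = 0.369), and Cd79a was too low to be tested. Without S100a8, a sum chosen after seeing the data, the other 19 markers came to 2.19, 2.91 and 2.67 TPM in Ctrl replicates 1, 2 and 3 and to 3.91, 4.26 and 2.03 TPM in Nfkbiz KO replicates 1, 2 and 3, with overlapping groups. The part of leukocyte RNA in the Cxcr4 level was not tested.

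Of 12 endothelial and fibroblast markers, 7 were tested. Col1a1, Col1a2 and Dcn, genes of the collagen matrix, fell by 0.58, 0.21 and 0.79 on the log2 scale (adjusted p = 1.18e-05, 0.00738 and 0.000247). Col1a2 no longer passed without Nfkbiz KO replicate 3, at a log2 fold change of -0.20, or in limma on log2(TPM + 1) and log2(TPM + 0.1), at -0.116 in both. Cdh5, the endothelial cadherin, rose by 1.34 (SE 0.27, adjusted p = 0.00228) from 0.548 to 1.54 TPM, and was named with Dcn after their values were seen. Pecam1, another endothelial marker, had 0 to 19 reads per sample. The growth factor receptor gene Pdgfrb had a log2 fold change of 0.05 (adjusted p = 0.608). The summed level of the list was 622.9 to 707.1 TPM for Ctrl and 525.0 to 565.5 TPM for Nfkbiz KO, mostly from the collagen genes. The part of these genes in the Cxcr4 level was not tested.

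The genes around the axis were read from 7 lists built from known roles, 159 genes in all, of which 124 were tested. The lists were chosen with earlier results of these data known. The shares below were not adjusted for expression level or tested, and nothing is read from them. Of these, 62 (50%) passed an adjusted p threshold of 0.05 in edgeR's quasi-likelihood test, 30 higher and 32 lower in Nfkbiz KO, beside 36.6% of all genes tested. By list, the share was 69.2% for G proteins, 63.6% for transcriptional regulators, 60.9% for other ligands and cofactors and 43.75% for signal effectors. It was 35.3% for desensitization and trafficking, 33.3% for chemokine receptors and 27.3% for the MHC class II pathway. The median log2 fold change was -0.03 in the lists and -0.015 over all genes tested. The changes were small, as 7 of the 62 exceeded a fold change of 2 and 3 met the thresholds of the study.

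**Figure D3:**
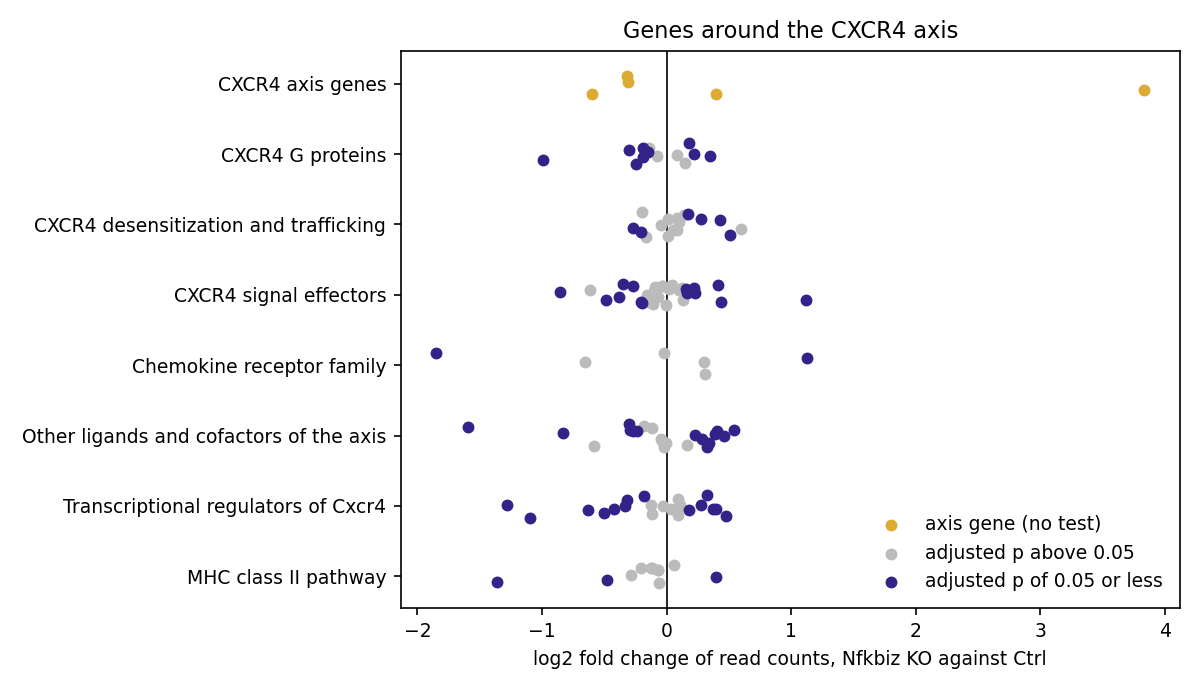
Log2 fold change of read counts in Nfkbiz KO against Ctrl for the 5 genes of the axis (yellow, no test) and for the tested genes of each list; dark points passed an adjusted p threshold of 0.05. Cxcr4, chosen for the largest log2 fold change of all genes tested, stands at 3.84, and the listed genes lie between -1.85 and 1.13.

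Chemokine receptors other than Cxcr4 and Ackr3 were mostly silent in D4M-3A cells. Of 23 receptor genes, 6 passed the filter on low counts and 4 had 0 reads in every sample. CXCR3 binds the interferon-induced chemokines CXCL9, CXCL10 and CXCL11, and Cxcr3 fell from 29, 21 and 18 reads in Ctrl replicates 1, 2 and 3 to 9, 5 and 5 reads in Nfkbiz KO replicates 1, 2 and 3. Its log2 fold change was -1.85 (SE 0.46, adjusted p = 0.00798), opposite to that of Cxcr4 and on few reads. Ccrl2, which encodes an atypical receptor that presents chemerin, rose from 1.94 ± 0.626 to 4.47 ± 0.549 TPM (SD, n = 3 each; log2 fold change 1.13 with an SE of 0.23, adjusted p = 0.00226). The other tested receptors did not pass. Ccr9, Ccr10, Cx3cr1 and Gpr182 had log2 fold changes of 0.31, -0.02, 0.30 and -0.66 with standard errors of 0.32 to 0.49, and those of Ccr10 and Cx3cr1 changed sign on the TPM scale. Only 12.5% to 33.3% of the reads on Ccr9 were mapped uniquely. For Cx3cr1 the share was 40% to 60% in Ctrl and 76.9% to 88.9% in Nfkbiz KO, so that both counts are less certain. Cxcr2, whose product also binds MIF, had 2 reads in Ctrl replicate 3 and 0 in the other samples.

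Chemokine receptors signal through heterotrimeric G proteins of the inhibitory class. Of 14 G protein genes, 13 were tested, 3 rose and 6 fell, with a median log2 fold change of -0.14. Gng2, a gamma subunit, fell from 37.5 ± 3.11 to 20.2 ± 0.582 TPM (SD, n = 3 each; log2 fold change -0.995 with an SE of 0.061, adjusted p = 1.06e-07). Gng5, another gamma subunit, fell by 0.30 (adjusted p = 0.000826). Gnai2, the alpha subunit most used by chemokine receptors, fell by 0.25 (adjusted p = 0.00614) from a level of 449 TPM. Gna13, another alpha subunit, rose by 0.35 (adjusted p = 0.0003). The number that passed was 5, 5 and 4 without Nfkbiz KO replicates 1, 2 and 3.

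Receptor kinases, arrestins, RGS proteins and endosomal sorting factors end CXCR4 signaling. Of 20 such genes, 17 were tested, 4 rose and 2 fell, with a median log2 fold change of 0.08. Rgs16, a GTPase-activating protein for G alpha subunits that limits chemokine responses, rose from 424 ± 20.4 to 652 ± 8.15 TPM (SD, n = 3 each; log2 fold change 0.51 with an SE of 0.051, adjusted p = 7.12e-06). Stam, an endosomal sorting gene, rose by 0.43 (adjusted p = 0.000128), and Grk6, a receptor kinase, by 0.28 (adjusted p = 0.00406). Arrb2, which encodes β-arrestin, fell by 0.27 (adjusted p = 0.03), and it no longer passed without Ctrl replicate 1, Ctrl replicate 3, Nfkbiz KO replicate 1 or Nfkbiz KO replicate 3, at log2 fold changes of -0.28, -0.24, -0.21 and -0.24. Nor did Arrb2 pass in limma on log2(TPM + 1) and log2(TPM + 0.1), at -0.16 and -0.17. Without Nfkbiz KO replicate 1 or 3, 3 genes of this list passed.

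Downstream of the receptor, 32 of 36 effector genes were tested, 7 rose and 7 fell, with a median log2 fold change of -0.05. Plcb1, a phospholipase C activated by G proteins, rose from 2.20 ± 0.293 to 5.55 ± 0.554 TPM (SD, n = 3 each; log2 fold change 1.12 with an SE of 0.11, adjusted p = 6.23e-06). Ptk2b, the calcium-responsive focal adhesion kinase PYK2, rose by 0.44 (adjusted p = 0.000256). Jak3, a cytokine receptor kinase, fell from 17.4 ± 1.37 to 10.5 ± 0.372 TPM (SD, n = 3 each), by 0.86 on the log2 scale (adjusted p = 3.25e-07). Pik3r5, the regulatory subunit of the G protein-activated PI3 kinase, fell by 0.49 (adjusted p = 0.0208). It did not pass without Nfkbiz KO replicate 1 or 3, at log2 fold changes of -0.43 and -0.38, or in limma on the same TPM scales, at -0.30 and -0.395. The number of effectors that passed was 7 without Nfkbiz KO replicate 1 and 8 without replicate 3.

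Of 25 further ligands, proteoglycans, processing enzymes and partners, 23 were tested, 8 rose and 6 fell, with a median log2 fold change of -0.02. Adm, the gene of adrenomedullin, a peptide that ACKR3 also scavenges, fell most. It had 481, 548 and 722 reads in Ctrl replicates 1, 2 and 3 and 181, 199 and 206 reads in Nfkbiz KO replicates 1, 2 and 3. Its means were 30.8 ± 2.47 and 11.1 ± 1.04 TPM (SD, n = 3 each; log2 fold change -1.59 with an SE of 0.11, adjusted p = 3.47e-07). Cxcl11, another ligand of ACKR3 and of CXCR3, rose by 0.46 (SE 0.14, adjusted p = 0.0211), but not past the threshold without Nfkbiz KO replicate 2 or 3, at log2 fold changes of 0.48 and 0.38. Cd44, the co-receptor through which CD74 signals on MIF binding, rose from 228 ± 16.2 to 357 ± 12.2 TPM (SD, n = 3 each; log2 fold change 0.54 with an SE of 0.057, adjusted p = 1.26e-05). Htra1, a secreted protease, fell by 0.83 (adjusted p = 1.88e-07) from 323 to 195 TPM.

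CXCR4 is known as a gene induced by hypoxia through HIF factors, which VHL marks for degradation. Of 22 factors described as regulators of Cxcr4 transcription, 22 were tested, 6 rose and 8 fell, with a median log2 fold change of 0.001. Hif1a had 11586, 14699 and 14900 reads in Ctrl replicates 1, 2 and 3 and 5541, 6510 and 7583 reads in Nfkbiz KO replicates 1, 2 and 3. Its mean fell from 199.8 ± 21.9 to 99.7 ± 2.39 TPM (SD, n = 3 each; log2 fold change -1.10 with an SE of 0.06, adjusted p = 4.53e-08). Epas1, which encodes HIF-2α, fell from 10.7 ± 0.988 to 4.71 ± 0.399 TPM (SD, n = 3 each), by 1.28 on the log2 scale (adjusted p = 5.62e-07). Vhl fell as well, by 0.50 (adjusted p = 0.000168). Stat3 fell by 0.63 (adjusted p = 1.55e-06). Those that rose were Twist1, Nr3c1, Foxc2, Zeb1, Snai2 and Sp1, named after their values were seen. Their log2 fold changes were 0.48, 0.40, 0.37, 0.33, 0.27 and 0.18. The RNA of both HIF genes was lower in Nfkbiz KO, and protein levels were not measured here. A link of any of these factors to the Cxcr4 level was not tested.

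CD74 chaperones MHC class II molecules, whose genes depend on the transactivator CIITA and the RFX complex. Of 19 genes of this pathway, 11 were tested, 1 rose and 2 fell, with a median log2 fold change of -0.11. The class II genes H2-Aa, H2-Ab1 and H2-Eb1 had at most 2 reads in any sample, and Ciita had at most 5, in both groups. Other genes of the list were well expressed, such as the protease gene Ctsl at means of 398 TPM for Ctrl and 444 TPM for Nfkbiz KO, named after its values were seen. Rfx5 rose by 0.39 (adjusted p = 0.00386), and Rfxank fell by 0.48 (adjusted p = 0.00493). Rfxank did not pass in limma on log2(TPM + 1) and log2(TPM + 0.1), at log2 fold changes of -0.36 and -0.40. H2-DMb1, a subunit of the peptide exchange factor H2-M, fell from 87, 78 and 129 reads in Ctrl replicates 1, 2 and 3 to 44, 32 and 38 reads in Nfkbiz KO replicates 1, 2 and 3, a log2 fold change of -1.37 (SE 0.25, adjusted p = 0.00112).

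The genes with the profile most like that of Cxcr4 were found by the root mean square difference of their log2 CPM, centered on the Ctrl mean, over the 6 samples. Fhl1, a LIM-domain protein gene, was nearest, at 0.292, followed by Gldn, the gene of gliomedin, at 0.481. A gene listed under its identifier ENSMUSG00000120268, a long non-coding RNA in the annotation, was at 0.490, the neurofilament gene Nefl at 0.537 and Naip1, an inflammasome sensor gene, at 0.560. Fhl1 had 25, 12 and 21 reads in Ctrl replicates 1, 2 and 3 and 234, 238 and 282 reads in Nfkbiz KO replicates 1, 2 and 3. Naip1 had 4, 2 and 6 reads in Ctrl and 47, 39 and 61 reads in Nfkbiz KO. Like Cxcr4, all 5 were higher in every Nfkbiz KO sample than in any Ctrl sample, which is how they were found. The measure selects a similar rise and not a high level, and Naip1 had a mean of 0.736 TPM in Nfkbiz KO. In Ctrl replicate 1, 49.6% of the reads on Nefl were mapped uniquely, so that its counts are less certain.

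**Figure D4:**
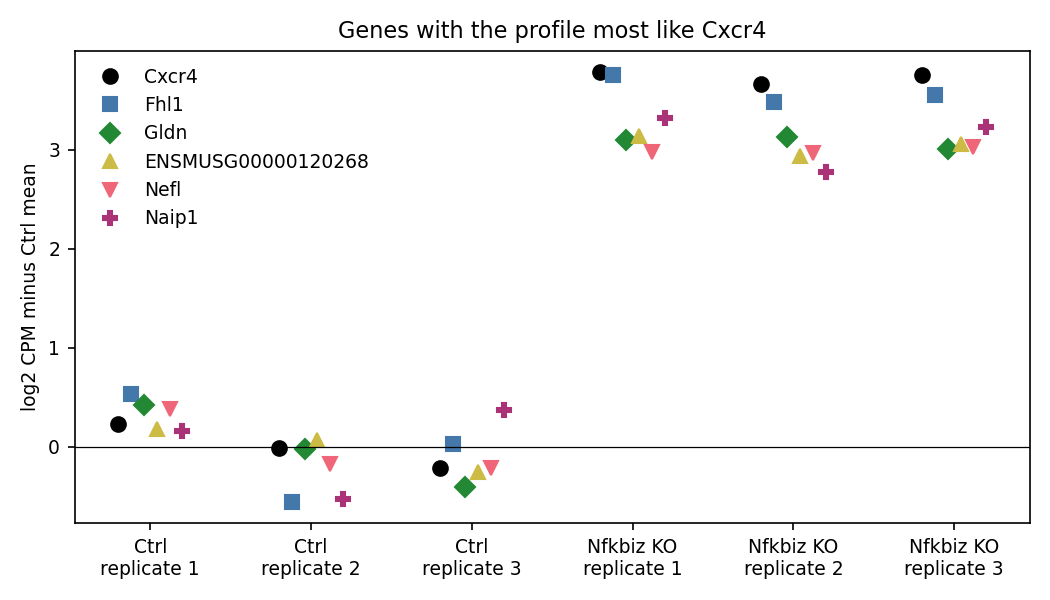
Log2 CPM minus the Ctrl mean in each sample, for Cxcr4 and the 5 genes with the most similar profile. The distance from Cxcr4 runs from 0.292 for Fhl1 to 0.560 for Naip1.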

How the data were processed

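Total RNA of D4M-3A cells was sequenced by Novogene as paired-end reads. The authors used the default mapping of CLC Genomics Workbench, with broken pairs ignored and without strand selection. Their methods name GRCm39, the processing notes GRCm38, and identifiers of the tables belong to GRCm39 annotations. The deposited tables give raw read counts per gene, all and uniquely mapped. The deposited TPM and RPKM values were normalized by the authors on exon reads and were converted from decimal commas.

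Read counts were tested with edgeR 4.0.16 (R 4.3.3), TMM normalization, filterByExpr (minimum count 10, minimum total 15), the quasi-likelihood test and Benjamini-Hochberg adjustment over 14419 genes. The standard error (SE) is the size of the log2 fold change divided by the square root of F. The procedure was tested on simulated counts. Exon reads were estimated from RPKM, with mapped reads estimated on 180 single-exon genes. Distances from whole numbers reached 0.34 reads, in Nfkbiz KO replicate 3 of Cxcr4, where the tolerance could reject no whole number. Positions come from GENCODE by symbol, and promoters from RefSeq by symbol for the members shown.

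Named genes are the members, Nfkbiz, up to 4 genes per pathway list with the largest log2 fold change among those that passed without overlap, all tested chemokine receptors, the 3 highest markers per list and the 5 profiles nearest to Cxcr4. All other genes in the text were chosen after their values were seen. Members and lists were chosen with earlier results of these data known. DESeq2 1.42.0, limma 3.58.1, RLE factors, no filter, unique reads, a replicate block and leaving out each sample were alternatives.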

Additional observations from a re-analysis of the deposited data

How the results depend on the processing

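The log2 fold change of Cxcr4 was between 3.72 and 3.96 with any 1 sample left out, and 3.10 in limma on log2(TPM + 1), a scale that understates changes of low genes. That of Cxcl12 was between -0.35 and -0.25 with 1 sample left out, and -0.215 and -0.22 in limma on log2(TPM + 1) and log2(TPM + 0.1). The other values of the 5 genes moved by less than 1 SD of the replicates, and no sign changed. With 1 sample left out, Mif was between -0.68 and -0.51, Ackr3 between -0.38 and -0.26 and Cd74 between 0.23 and 0.61. The number of listed genes with an adjusted p of 0.05 or less lay between 42 and 64 with 1 sample left out, and that of all genes between 3798 and 5533.

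Among genes that did not pass, the sign changed in limma on log2(TPM + 1) and log2(TPM + 0.1) for Ccr10 (0.059 and 0.10), Cx3cr1 (-0.049 and -0.35) and Mitf (0.006 and 0.017), and with 1 sample left out for Ccr10 (-0.24 to 0.24), Mitf (-0.15 to 0.088) and Pdgfrb (-0.022 to 0.11). The cause was not tested.

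Samples with the same replicate number had correlations of 0.037, -0.023 and 0.026 of their deviations across genes, and no shared effect of the number was visible. Whether same-numbered samples were handled together is not stated, and these correlations cannot decide it. With the replicate number as a block, 5087 genes passed, of which 4945 were shared with the 5274 without it, 58 listed genes passed, and Cxcr4 had a log2 fold change of 3.84.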

Other observations

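The 3 nearest tested genes on each side of Cxcr4 on chromosome 1 were examined after the values of Cxcr4 were known. Mcm6, a subunit of the replicative helicase 228420 bases away, rose from 171.7 ± 5.97 to 231.0 ± 1.53 TPM (SD, n = 3 each), by 0.33 on the log2 scale (SE 0.05, edgeR adjusted p = 0.000219). Pfkfb2, a regulator of glycolysis 2096735 bases away, rose by 0.42 (SE 0.11, edgeR adjusted p = 0.0102). Ubxn4, Lct, Thsd7b and Yod1 had log2 fold changes of 0.02, 1.10, -0.39 and 0.04 and did not pass, and Lct and Thsd7b were below 1 TPM on average in both groups. Thsd7b went the other way in TPM, with means of 0.00254 for Ctrl and 0.0117 for Nfkbiz KO. Cxcr4 was chosen for the largest log2 fold change of all genes tested, so that none of the 6 genes could exceed it.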
